A study of Mus musculus with 4 samples.

Results

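The genes described here encode the core of the insulin and IGF1 receptor pathway, read from whole mouse islets at low and high glucose. There are 10 of them: the receptors *Insr* and *Igf1r*, the adaptors *Irs1* and *Irs2*, the PI3-kinase subunits *Pik3r1* and *Pik3ca*, the kinases *Akt1* and *Akt2*, and the transcription factors *Foxo1* and *Foxo3*. They were picked by symbol out of the 24012 genes named in the deposited table, with no filter on their values. Earlier results of these data were known when the genes were chosen, so their shares below are not an independent test. Where the table lists a symbol more than once with different values, as it does for *Pik3r1* and *Akt2*, the entry with the highest mean over the libraries was used.

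The islets came from male C57bl6 mice of 3 months with no genetic change named in the labels, and the same handling was shared by both groups. They were pooled, recovered overnight at 11 mM glucose and kept for 2 h at 2.8 mM glucose. The groups were then held at 2.8 mM or at 16.8 mM glucose, with 2 RNA-seq libraries in each, numbered replicates 1 and 2. Total RNA was the material from which the libraries were made. The study's text gives an incubation of 12 h in each case. The sample labels state 12 h only at 16.8 mM and state 2 h at 2.8 mM, so glucose and time in culture cannot be told apart if the labels are right. The study's text says that control and stimulated islets came from the same pool. No source says that the replicates came from separate mice. The p-values below therefore measure only the spread between these libraries, which may be technical.

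Insulin and IGF1 bind related receptor tyrosine kinases, which phosphorylate the IRS adaptor proteins. These recruit PI3-kinase, a catalytic subunit held by a regulatory subunit, and the lipid it makes brings AKT to the membrane. AKT then acts on many proteins, among them the FOXO transcription factors, which it sends out of the nucleus, and the mTOR branch that controls growth. Beta cells carry this pathway as well as secreting its ligand, and mice that lack *Irs2* lose beta cells and become diabetic. FOXO factors are known to drive *Insr* and *Irs2* when insulin signalling is low, and CREB, a factor activated by cAMP and calcium, is known to drive *Irs2* in beta cells.

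The values are RPKM, reads scaled to the length of a gene and to the size of the library. The length behind them is the genomic span with its introns, as far as low values tell, so a gene with long introns has a low value for the reads it holds. The libraries held 50800000 to 60710000 reads, as recovered from the table. Islet markers were present, as the tissue label says. Summed insulin and other beta cell markers lay at 20590 to 22940 RPKM at 2.8 mM and 41160 to 43910 RPKM at 16.8 mM, with 7 of 9 markers higher and 0 lower, while alpha cell markers summed to 1486 to 2172 RPKM with 0 of 5 past the threshold. Markers of acinar cells, the enzyme-secreting cells around the islet, summed to 112.7 and 320.1 RPKM at 2.8 mM and to 272.1 and 560.0 RPKM at 16.8 mM, with replicate 2 the higher in each group and 0 of 11 past the threshold. Endothelial markers summed to 2.94 to 4.724 RPKM and stromal markers to 2.29 to 4.079 RPKM, with none past the threshold. Duct markers summed to 18.19 to 22.86 RPKM with 1 of 3 tested lower at 16.8 mM (*Krt7*, log2 fold change -0.56, adjusted p = 0.025), and leukocyte markers to 12.32 to 18.37 RPKM with 1 of 5 tested higher (*Cd14*, 0.98, adjusted p = 0.0061). Whether these shifts have a part in the results below was not tested. In whole islets, fewer cells of a type and less RNA per cell cannot be told apart.

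Between 2.8 mM and 16.8 mM glucose, the pathway changed at several levels and in both directions. *Irs2*, *Igf1r*, *Pik3r1* and *Irs1* were higher at 16.8 mM, *Insr* and *Akt2* were lower, and *Pik3ca*, *Akt1*, *Foxo1* and *Foxo3* did not pass the test. That makes 6 of the 10 genes with an adjusted p under 0.05, against 29.8% of the 16234 transcripts tested (limma on log2(RPKM + 0.1), Benjamini-Hochberg adjustment over all of them). By direction, 4 of 10 were higher against a background of 8.68%, and 2 of 10 were lower against 21.2%. All 10 genes passed the minimum of 0.1 RPKM. The median size of the log2 fold change was 0.47 over the 10 genes and 0.25 over all transcripts tested. Over all transcripts tested, the median signed log2 fold change was -0.12, and 29.1% of the changed ones were higher. That share became 41.9% after quantile normalization and 46.4% after median centring of the libraries. The higher transcripts were then 17.3% and 18.7% of all those tested in place of 8.68%, and 5 of the 10 genes were higher with either scaling. Centring moved *Pik3ca* and *Akt1* to log2 fold changes of -0.10 and -0.14, and of the 10 genes *Foxo3* alone changed sign with the scaling.

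**Figure D1:**
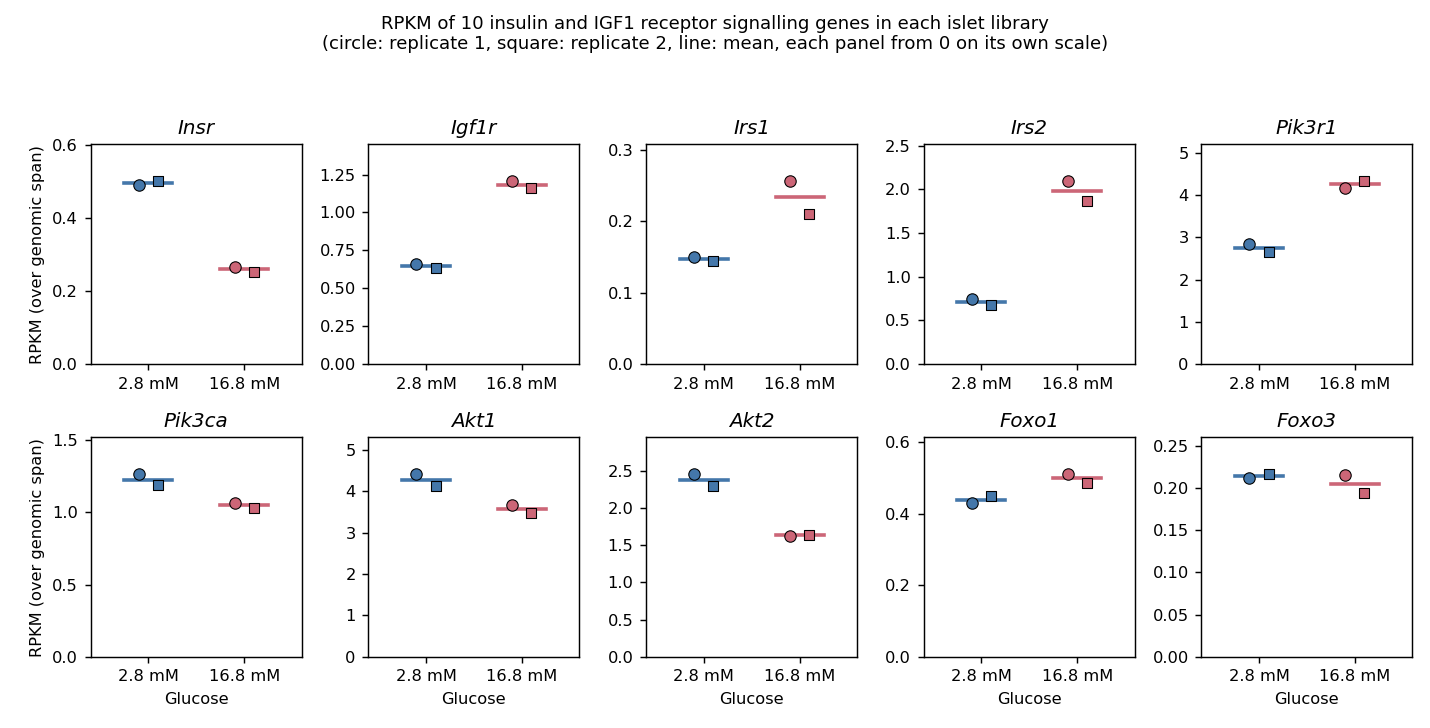
RPKM over the genomic span (y axis, from 0, a separate scale for each gene) of the 10 genes at 2.8 mM (blue) and 16.8 mM glucose (red), with a circle for replicate 1, a square for replicate 2 and a line for the mean. The libraries of both groups lie apart for every gene but *Foxo3*, as they do for 71.3% of all transcripts tested. In proportion to the level, the gap is widest for *Irs2*, from 0.670 and 0.739 RPKM to 1.87 and 2.09 RPKM.

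The receptors moved in opposite directions. *Insr*, the receptor for insulin, is annotated on the minus strand of mm9 at chr8:3150922-3279617, with 21 exons. It had 0.490 and 0.501 RPKM in the libraries at 2.8 mM and 0.266 and 0.253 RPKM at 16.8 mM. Both 16.8 mM libraries were thus lower than both 2.8 mM libraries. The mean at 16.8 mM was 0.523 of that at 2.8 mM, and the log2 fold change was -0.73 with a standard error of 0.07 (limma, adjusted p = 0.0080). These levels rested on about 3350 to 3680 reads at 2.8 mM and 1650 to 2080 reads at 16.8 mM, estimated from RPKM, span and depth.

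*Igf1r*, the receptor that binds IGF1 with high affinity, spans chr7:75097713-75371484 on the plus strand of mm9 and also has 21 exons. Its level was 0.660 and 0.631 RPKM at 2.8 mM and 1.21 and 1.16 RPKM at 16.8 mM, again with no overlap. It rose 1.83-fold by the ratio of means, with a log2 fold change of 0.78 (SE 0.07, limma adjusted p = 0.0075). This was the longest of the 10 spans and held the most reads, about 8980 to 10550 at 2.8 mM and 16100 to 20050 at 16.8 mM. Without replicate 2 at 16.8 mM the adjusted p was 0.053 for *Insr* and 0.052 for *Igf1r* with nearly unchanged log2 fold changes of -0.70 and 0.81, and both passed without any other library.

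In every library *Insr* was below *Igf1r* on this per-span scale, but by different amounts. The ratio of *Insr* to *Igf1r* RPKM was 0.742 and 0.794 at 2.8 mM and 0.220 and 0.218 at 16.8 mM. On the log2(RPKM + 0.1) scale the ratio fell by 1.51 from a mean of -0.32 ± 0.06 to -1.84 ± 0.002 (SD, n = 2). No p is given for such ratios, because an exact permutation test of 2 libraries against 2 cannot go below a two-sided p of 0.333. *Insrr*, the third receptor of this family, which senses alkaline pH and binds neither ligand, was 7.34 and 7.70 RPKM at 2.8 mM and 4.39 and 4.54 RPKM at 16.8 mM. *Insrr* fell with a log2 fold change of -0.74 (SE 0.09, limma adjusted p = 0.011), beside -0.73 for *Insr*. The 0.1 RPKM added shrinks the change of *Insr* more, as its level is lower. With nothing added, the log2 ratio of means was -0.75 for *Insrr* and -0.93 for *Insr*. Whether the changes differ was not tested.

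**Figure D2:**
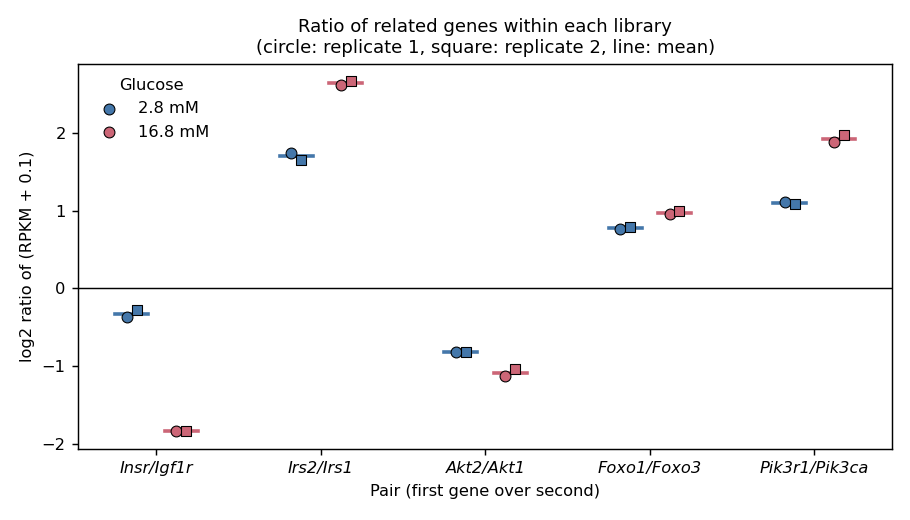
The log2 ratio of RPKM + 0.1 (y axis) of the first gene over the second in each library, for 5 pairs of related genes at 2.8 mM (blue) and 16.8 mM glucose (red), with circles for replicate 1, squares for replicate 2 and lines for means. The *Insr*/*Igf1r* ratio falls furthest, from -0.32 to -1.84, and the *Irs2*/*Irs1* and *Pik3r1*/*Pik3ca* ratios rise.

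Of the adaptors, *Irs2* changed most and *Irs1* changed less, in the same direction. *Irs2*, the adaptor most tied to beta cell survival, lies on the minus strand of mm9 at chr8:10986980-11008458 and has 2 exons. It was at 0.739 and 0.670 RPKM at 2.8 mM and at 2.09 and 1.87 RPKM at 16.8 mM. Both 16.8 mM libraries stood far above both 2.8 mM libraries. The rise was 2.81-fold by the ratio of means, with a log2 fold change of 1.37 (SE 0.10, 95% confidence interval 1.12 to 1.62, limma adjusted p = 0.0058). Only 1.40% of all transcripts tested had a log2 fold change at or above it. *Irs2* passed in every fit that was run, including those without 1 library, where its log2 fold change lay between 1.29 and 1.45. A lincRNA on the opposite strand, 9530052E02Rik, overlaps 609 bp of *Irs2* and was at 0.142 and 0.133 RPKM at 2.8 mM and 0.282 and 0.290 RPKM at 16.8 mM. Whether counting used the strand is not stated, and its part in the value of *Irs2* was not tested.

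*Irs1*, the adaptor better known from muscle and fat, lies at chr1:82229676-82287991 on the minus strand and also has 2 exons. It was the lowest of the 10 genes at 2.8 mM, at 0.151 and 0.145 RPKM, and reached 0.257 and 0.211 RPKM at 16.8 mM, on about 440 to 910 reads a library. The groups did not overlap, but the 16.8 mM libraries were spread more widely than those of any other rising gene in proportion to their mean. The ratio of means was 1.58, and the log2 fold change was 0.43 (SE 0.10, limma adjusted p = 0.038). The 0.1 RPKM added before the log2 understates a change at this level, and the log2 ratio of means with nothing added was 0.66. The call for *Irs1* is the least firm of the 6. It was lost without a minimum RPKM (adjusted p = 0.071) and without any 1 of the 4 libraries (adjusted p between 0.0715 and 0.107).

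The ratio of *Irs2* to *Irs1* RPKM went from 4.91 and 4.62 at 2.8 mM to 8.15 and 8.87 at 16.8 mM. On the log2(RPKM + 0.1) scale it rose by 0.94, from 1.70 ± 0.06 to 2.64 ± 0.03 (SD, n = 2). *Irs2* was therefore the more abundant adaptor per span in all 4 libraries, by a margin that grew.

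The promoters of both adaptors are shown because these are the members of 1 family that rose together, and because the window before the start of each holds an E-box and a forkhead-type element, sequences of the kind bound by basic helix-loop-helix and forkhead factors. The windows are the 250 bases before the RefSeq start in GRCm38.p6, on the strand of the gene, 5′ to 3′, at chr8:11008930-11009179 for *Irs2* and chr1:82291440-82291689 for *Irs1*. Capitals mark the motifs searched on both strands: the E-box CACGTG, the forkhead-type AAAACAA, which reads TTGTTTT on the other strand, the FOXO consensus GTAAACA, the cAMP response element TGACGTCA, its core TGACG, which the full element contains, and the GC box GGGCGG.
Irs2: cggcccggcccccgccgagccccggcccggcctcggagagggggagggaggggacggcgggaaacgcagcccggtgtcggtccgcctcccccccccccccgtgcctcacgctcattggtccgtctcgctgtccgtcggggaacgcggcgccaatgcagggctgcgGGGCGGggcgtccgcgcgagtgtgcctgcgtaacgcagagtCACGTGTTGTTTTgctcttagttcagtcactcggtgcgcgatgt
Irs1: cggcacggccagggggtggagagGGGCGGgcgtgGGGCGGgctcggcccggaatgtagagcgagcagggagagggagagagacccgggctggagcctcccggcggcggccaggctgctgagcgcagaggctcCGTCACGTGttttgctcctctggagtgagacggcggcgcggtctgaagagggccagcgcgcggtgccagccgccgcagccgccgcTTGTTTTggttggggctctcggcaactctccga
In the *Irs2* window the E-box fills bases 207 to 212, counted from the 5′ end, and TTGTTTT follows directly at bases 213 to 219, which puts the pair 32 to 44 bases before the start. In the *Irs1* window they lie apart, the E-box at bases 136 to 141 and TTGTTTT at bases 218 to 224, and a TGACG on the other strand at bases 133 to 137 shares bases with the E-box. Of 32851 RefSeq windows of this length, 6.02% hold CACGTG, 8.11% hold AAAACAA on either strand, and 106 windows, or 0.323%, hold both. GTAAACA is found in 3.17% of windows, TGACGTCA in 1.55%, TGACG in 17.8% and GGGCGG in 32.7%. Both windows were shown because they hold the pair, so the 0.323% does not measure how unusual they are. The RefSeq windows were not matched to them in G and C. A match describes these letters and says nothing of binding in the islets.

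The 4 windows of *Akt2* were not matched to the entry used, whose transcript is shorter than the gene. The first window may therefore not be the one before the transcript whose fall is given below. For comparison, the window of *Igf1r* (chr7:67952007-67952256, plus strand), the receptor that rose, and the first *Akt2* window (chr7:27591302-27591551, plus strand) read as follows.
Igf1r: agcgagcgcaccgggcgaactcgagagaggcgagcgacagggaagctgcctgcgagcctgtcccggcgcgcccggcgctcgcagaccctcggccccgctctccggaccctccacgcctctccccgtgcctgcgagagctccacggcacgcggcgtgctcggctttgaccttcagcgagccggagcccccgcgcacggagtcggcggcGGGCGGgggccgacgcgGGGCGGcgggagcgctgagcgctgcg
Akt2: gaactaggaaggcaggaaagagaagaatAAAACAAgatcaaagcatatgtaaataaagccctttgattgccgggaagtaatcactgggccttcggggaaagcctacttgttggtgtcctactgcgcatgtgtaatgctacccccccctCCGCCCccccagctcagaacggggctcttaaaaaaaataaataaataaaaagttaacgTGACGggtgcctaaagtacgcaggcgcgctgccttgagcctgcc
The *Igf1r* window has 77.6% G and C and holds no motif but 2 GC boxes, while the *Akt2* window has 48.8% G and C and holds a forkhead-type element, a TGACG and 1 GC box. RefSeq windows were found for 9 of the 10 genes, all but *Insr*, and for 14 starts in all. Among these 9 genes, 2 had an E-box (*Irs1* and *Irs2*), 4 a forkhead-type element (these and both AKT genes), 1 the FOXO consensus (*Akt1*), 4 a TGACG, 0 the full cAMP response element and 9 a GC box. Genes that rose, fell or did not pass are found among those with a forkhead-type element, though that of *Akt2* lies in its first window.

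The PI3-kinase subunits also split. *Pik3r1* encodes the main regulatory subunits, which hold the catalytic subunit stable and bind it to IRS proteins. The gene lies on the minus strand at chr13:102450716-102538172, and the entry with the highest mean covers a shorter transcript of 10 exons that starts inside it. That entry was at 2.84 and 2.64 RPKM at 2.8 mM and 4.18 and 4.34 RPKM at 16.8 mM, with clear separation. It rose 1.55-fold, with a log2 fold change of 0.62 (SE 0.09, limma adjusted p = 0.015). The entry of the longer transcript showed the same pattern at a lower level, 0.526 and 0.496 RPKM against 0.769 and 0.795 RPKM, with a log2 fold change of 0.53 (SE 0.07, adjusted p = 0.013). The part of the long span that the short one does not cover held about 12.2 and 12.0 RPM (reads scaled to library size alone) at 2.8 mM and 17.6 and 18.0 RPM at 16.8 mM, so reads outside the shorter transcript were higher too. The call for the shorter entry was lost without any 1 of the 4 libraries (adjusted p between 0.0605 and 0.0853), with a log2 fold change between 0.57 and 0.67.

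*Pik3ca*, which encodes a catalytic subunit (chr3:32296593-32367408, plus strand), was at 1.27 and 1.19 RPKM at 2.8 mM and 1.06 and 1.03 RPKM at 16.8 mM. The libraries of the groups did not overlap, but the difference did not pass the test (log2 fold change -0.21, SE 0.08, 95% confidence interval -0.41 to -0.01, limma adjusted p = 0.10). The ratio of *Pik3r1* to *Pik3ca* RPKM was 2.24 and 2.23 at 2.8 mM and 3.92 and 4.20 at 16.8 mM. With the shorter entry of *Pik3r1*, regulatory over catalytic subunit thus stood at 1.10 ± 0.01 on the log2(RPKM + 0.1) scale at 2.8 mM and 1.92 ± 0.07 at 16.8 mM (SD, n = 2), without a test. The longer entry, at 0.526 and 0.496 RPKM and then 0.769 and 0.795 RPKM, lay below *Pik3ca* in every library. Which of the genes had the higher RPKM thus depends on the entry.

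Of the AKT kinases, *Akt2*, the isoform most tied to glucose uptake under insulin, fell, and *Akt1*, the isoform most tied to growth and survival, did not pass the test. *Akt2* lies at chr7:28376571-28425845 on the plus strand, and the entry used covers a transcript of 14 exons that is shorter than the gene. It was at 2.46 and 2.29 RPKM at 2.8 mM and at 1.63 and 1.64 RPKM at 16.8 mM. The 16.8 mM libraries lay close together and well under the others, with a mean that was 0.687 of the one at 2.8 mM. The log2 fold change was -0.51 (SE 0.08, limma adjusted p = 0.017). The entry with the longer span was at 1.85 and 1.71 RPKM against 1.27 and 1.29 RPKM (log2 fold change -0.45, SE 0.08, adjusted p = 0.022). Reads in the stretch covered by the longer span alone did not follow: they came to about 8.59 and 7.39 RPM at 2.8 mM and 7.74 and 8.43 RPM at 16.8 mM, which overlap, while those inside the shorter span went from 82.5 and 77.1 to 54.7 and 55.0 RPM. Without any 1 of the 4 libraries the call for *Akt2* was lost (adjusted p between 0.068 and 0.102), with a log2 fold change between -0.56 and -0.47.

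*Akt1* (chr12:113892032-113913095, minus strand, 14 exons) had the highest level of the 10 genes at 2.8 mM, 4.42 and 4.13 RPKM, and 3.67 and 3.47 RPKM at 16.8 mM. Both 16.8 mM libraries were the lower ones, by a log2 fold change of -0.25 that did not pass (SE 0.09, 95% confidence interval -0.50 to -0.01, limma adjusted p = 0.10). It did pass in limma's voom fit to reconstructed reads (log2 fold change -0.26, adjusted p = 0.030). The ratio of *Akt2* to *Akt1* RPKM was 0.556 and 0.555 at 2.8 mM and 0.443 and 0.472 at 16.8 mM, a drop of 0.26 on the log2(RPKM + 0.1) scale, from -0.82 ± 0.0002 to -1.08 ± 0.06 (SD, n = 2).

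At the deposited scaling the FOXO factors moved least. *Foxo1*, the main FOXO factor of beta cells (chr3:52072259-52154031, plus strand, 3 exons), was at 0.429 and 0.449 RPKM at 2.8 mM and 0.511 and 0.487 RPKM at 16.8 mM. The groups were apart but close, and the log2 fold change of 0.15 did not pass (SE 0.07, 95% confidence interval -0.03 to 0.34, limma adjusted p = 0.16). After quantile normalization or centring it was 0.26 and passed (adjusted p = 0.040 and 0.047), as it did at the deposited scaling in voom on reconstructed reads with the replicate block (log2 fold change 0.19, adjusted p = 0.028). Under quantile normalization and centring *Foxo1* thus changed more than *Pik3ca* (-0.084 and -0.098) and *Akt1* (-0.15 and -0.14). *Foxo3* (chr10:41901647-41996561, minus strand, 4 exons) was at 0.212 and 0.217 RPKM at 2.8 mM and at 0.216 and 0.195 RPKM at 16.8 mM. It is the one gene of the 10 with overlapping groups, against 71.3% of all transcripts tested with groups that did not overlap. Its log2 fold change was -0.04 (SE 0.08, 95% confidence interval -0.25 to 0.16, adjusted p = 0.69), and its sign flipped with the scaling, to 0.02 and 0.07. These values concern RNA only, and FOXO factors are controlled largely by where the protein lies in the cell, which RNA-seq does not measure.

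**Figure D3:**
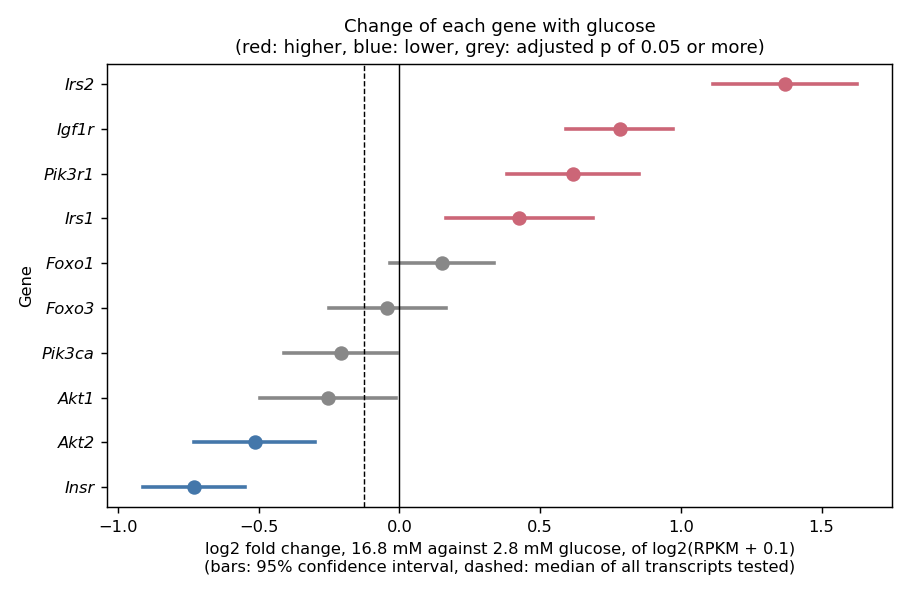
The log2 fold change at 16.8 mM against 2.8 mM glucose of log2(RPKM + 0.1) for the 10 genes (x axis; points: estimate; bars: 95% confidence interval; red: higher, blue: lower, grey: not past an adjusted p of 0.05), with the median of all transcripts tested, -0.12, as a dashed line. The genes run from *Irs2* at 1.37 to *Insr* at -0.73, and the intervals of *Foxo1* and *Foxo3* include 0.

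Ordered by RPKM over the span at 2.8 mM, the genes were *Akt1*, *Pik3r1*, *Akt2*, *Pik3ca*, *Irs2*, *Igf1r*, *Insr*, *Foxo1*, *Foxo3* and *Irs1*, from a mean of 4.28 ± 0.20 to 0.148 ± 0.004 RPKM (SD, n = 2). No neighbours in this order overlapped, although *Irs2* and *Igf1r* nearly met, at 0.670 and 0.660 RPKM. At 16.8 mM the order was *Pik3r1*, *Akt1*, *Irs2*, *Akt2*, *Igf1r*, *Pik3ca*, *Foxo1*, *Insr*, *Irs1* and *Foxo3*, from 4.26 ± 0.11 to 0.205 ± 0.015 RPKM. Here *Irs1* overlapped both *Insr* and *Foxo3*. *Irs2* climbed from the fifth place to the third, and *Pik3r1*, taken by its shorter entry, passed *Akt1*. The longer entry of *Pik3r1* lay below *Pik3ca* in every library. All 10 genes lay far below the insulin genes, and 5 of them had a mean under 1 RPKM. Intron length enters this order, since *Igf1r* held more reads than *Pik3r1* in every library and yet had the lower RPKM.

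The rest of the pathway was read from 6 lists of textbook genes, without the 10 described above. Of 113 further genes in the table, 91 passed the minimum, and of these 19 were higher and 18 lower at 16.8 mM (limma, adjusted p under 0.05). The shares were 20.9% and 19.8%, against the 8.68% and 21.2% of all transcripts tested. With quantile normalization 25 were higher and 20 lower, and with centring 27 and 20, against the larger shares of higher transcripts given above for these scalings. Members of the lists beyond the strongest rises and falls of each list are named after their values were seen.

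Among 12 ligands and binding proteins, 8 were tested, 4 were higher and 0 lower. The shares were 50% and 0%, against 8.68% and 21.2% of all transcripts tested. The insulin genes were the largest part of the signal. *Ins1* rose from 3113 and 3072 RPKM to 10735 and 10364 RPKM, with a log2 fold change of 1.77 (SE 0.07, adjusted p = 0.0033). *Ins2* rose from 18136 and 15943 RPKM to 30018 and 27396 RPKM, a log2 fold change of 0.75 (SE 0.10, adjusted p = 0.013). Each rise exceeds the gap between replicates. *Igfbp3*, a carrier protein that binds IGFs, went from 1.08 and 1.16 RPKM to 4.91 and 3.12 RPKM (log2 fold change 1.72, SE 0.23, adjusted p = 0.013). *Igf2* was at 0.721 and 0.788 RPKM against 1.19 and 1.08 RPKM (log2 fold change 0.54, SE 0.09, adjusted p = 0.019). *Igf1* itself was nearly absent, between 0.0114 and 0.0173 RPKM in the 4 libraries, and was not tested. After quantile normalization 2 genes of this list were higher and 0 lower, where 17.3% of all transcripts were higher and 24% lower.

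Among 19 other adaptors and brakes on the receptor, 14 were tested, 2 were higher and 4 lower. Higher genes thus made up 14.3% and lower genes 28.6%, against 8.68% and 21.2% of all transcripts tested. The rises were both of the SOCS family, feedback inhibitors of cytokine and insulin signalling. *Socs3* went from 4.51 and 3.92 RPKM to 6.87 and 6.83 RPKM (log2 fold change 0.69, SE 0.11, adjusted p = 0.017), and *Socs2* had a log2 fold change of 0.57 (adjusted p = 0.016). The falls were *Grb10*, an adaptor that binds the activated receptors and dampens them, *Insrr*, given above, and the SOCS genes *Socs7* and *Socs6*. *Grb10* went from 0.939 and 0.859 RPKM to 0.507 and 0.473 RPKM (log2 fold change -0.76, SE 0.08, adjusted p = 0.0091). *Socs7* and *Socs6* had log2 fold changes of -0.54 and -0.46 (adjusted p = 0.018 and 0.020). Members of 1 family therefore moved both ways in this list. *Ptpn1*, the phosphatase that removes phosphate from the receptor, was at 0.934 and 0.868 RPKM against 1.15 and 1.03 RPKM and did not pass (adjusted p = 0.10). Quantile normalization and centring each gave 5 higher and 4 lower, where 17.3% and 18.7% of all transcripts were higher and 24% and 21.7% lower.

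Of 24 other PI3-kinase subunits, lipid phosphatases and AKT regulators, 18 were tested, 2 were higher and 3 lower. These shares, 11.1% and 16.7%, were near the 8.68% and 21.2% of all transcripts tested. The strongest moves belonged to tribbles pseudokinases, proteins with a kinase fold that lack normal catalysis. *Trib3*, described as a binder of AKT and as a stress response gene, fell from 25.2 and 24.0 RPKM to 6.20 and 5.65 RPKM (log2 fold change -2.03, SE 0.10, adjusted p = 0.0040). *Trib1* rose from 1.44 and 1.29 RPKM to 3.96 and 3.63 RPKM (log2 fold change 1.41, SE 0.10, adjusted p = 0.0058). *Pik3r3*, another regulatory subunit, rose as *Pik3r1* did, from 0.234 and 0.219 RPKM to 0.345 and 0.339 RPKM (log2 fold change 0.44, SE 0.07, adjusted p = 0.018). *Inpp5k*, a lipid phosphatase, fell as well (log2 fold change -0.48, SE 0.08, adjusted p = 0.019).

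Of 21 AKT substrates and genes of the mTOR branch, 20 were tested, 0 were higher and 6 lower. The share of lower genes, 30%, was near the 21.2% of all transcripts tested. Counts of higher genes were 0 with the other scalings also, and 6 or 7 genes were lower. *Foxo6*, a FOXO factor, fell from 0.655 and 0.574 RPKM to 0.365 and 0.360 RPKM (log2 fold change -0.63, SE 0.08, adjusted p = 0.014). *Tsc1*, whose product with TSC2 holds mTOR in check, fell from 1.67 and 1.68 RPKM to 1.15 and 1.09 RPKM (log2 fold change -0.54, SE 0.07, adjusted p = 0.014). The other falls were *Eif4ebp1*, *Deptor*, *Mtor* and *Gsk3b*, with log2 fold changes between -0.49 and -0.27. They included the kinase mTOR itself, its inhibitor *Deptor* and *Eif4ebp1*, a repressor of translation that mTOR switches off. The median over the 20 genes was -0.26, beside -0.12 over all transcripts tested.

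Of 26 other genes known as FOXO targets, 20 were tested, 3 were higher and 4 lower. That is 15% and 20%, beside 8.68% and 21.2% of all transcripts tested, so the share of lower genes was near that of all transcripts. The falls were *Klf15*, a metabolic transcription factor, *Fbxo32*, a subunit of a ubiquitin ligase of wasting muscle, *Cat*, the peroxide-degrading catalase, and *Bcl6*, a transcription repressor. *Klf15* went from 0.953 and 0.934 RPKM to 0.249 and 0.372 RPKM (log2 fold change -1.36, SE 0.16, adjusted p = 0.011). *Fbxo32* went from 0.427 and 0.433 RPKM to 0.215 and 0.220 RPKM (log2 fold change -0.74, SE 0.07, adjusted p = 0.0075), close to *Insr* in level and in change. *Cat* and *Bcl6* had log2 fold changes of -0.70 and -0.46 (adjusted p = 0.011 and 0.022). The rises were *Ccnd1*, a cyclin that FOXO is known to repress (log2 fold change 0.61, adjusted p = 0.022), *Cdkn1a*, an inhibitor of the cell cycle (0.56, adjusted p = 0.032), and *Cited2*, a transcription cofactor (0.48, adjusted p = 0.044). *Insr* and *Irs2*, both in the full list, moved in opposite directions. Both directions were found in the list under every scaling, with 5 higher and 6 lower after quantile normalization. The list holds *Ccnd1*, which FOXO is known to repress, beside genes that FOXO drives, so mixed directions do not measure FOXO activity. Whether FOXO factors have a part in these changes was not tested.

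Of 15 other genes known as CREB targets, 13 were tested, 8 were higher and 1 lower, so that 61.5% were higher where 8.68% of all transcripts were at the deposited scaling. Many of them are also immediate early genes, which respond to several factors. The list was chosen with earlier results of these data known, so its share is not an independent test. Whether CREB has a part in these changes was not tested. *Nr4a2*, a nuclear receptor, rose from 0.442 and 0.389 RPKM to 4.03 and 3.45 RPKM (log2 fold change 2.90, SE 0.11, adjusted p = 0.0033). *Egr1*, a zinc finger factor, rose from 1.17 and 1.17 RPKM to 9.88 and 7.90 RPKM (log2 fold change 2.82, SE 0.13, adjusted p = 0.0033). The one fall was *Crtc2*, which encodes a coactivator of CREB, from 3.79 and 3.61 RPKM to 2.58 and 2.45 RPKM (log2 fold change -0.54, SE 0.09, adjusted p = 0.018). *Irs2* lay in the middle of this list, above its median of 1.34 by little. Quantile normalization and centring each gave 9 higher and 1 lower of 13, where 17.3% and 18.7% of all transcripts were higher.

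**Figure D4:**
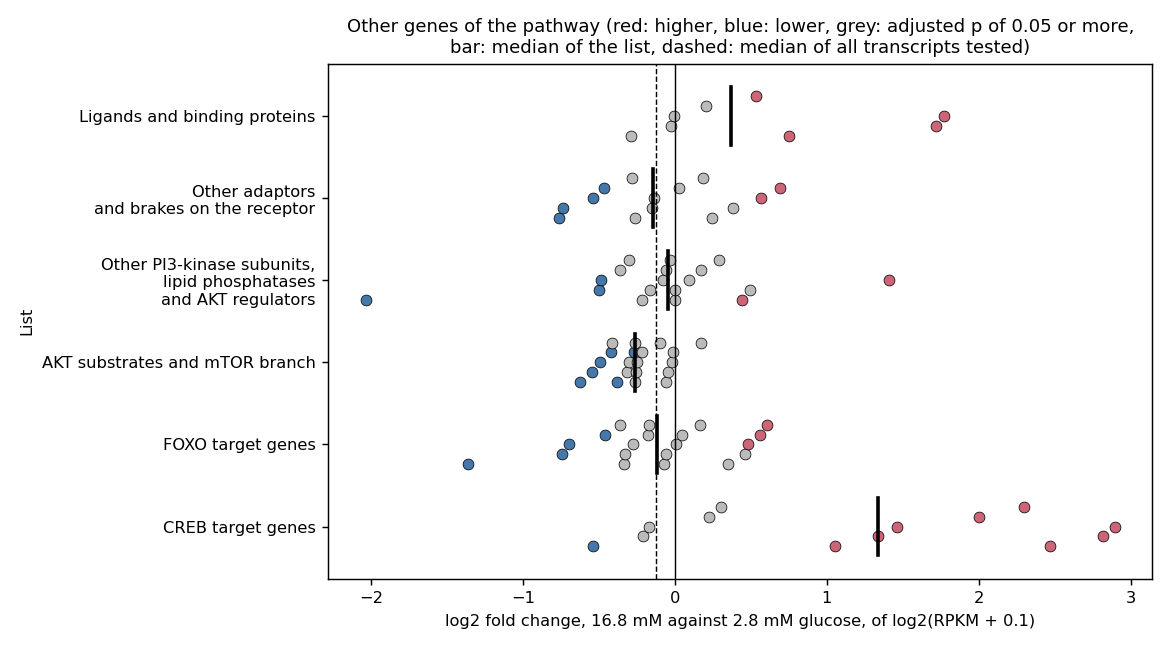
The log2 fold change at 16.8 mM against 2.8 mM glucose of log2(RPKM + 0.1) (x axis) of each tested gene in the 6 lists (rows), without the 10 core genes, in red where higher, blue where lower and grey where not past an adjusted p of 0.05. Black bars mark the median of each list and the dashed line that of all transcripts tested, at -0.12. CREB targets lie mostly to the right (median 1.34), and the medians of the other lists lie between -0.26 and 0.37.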

How the data were processed

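Whole islets at 2.8 mM and 16.8 mM glucose were compared with 2 libraries each. The authors deposited RPKM values for RefSeq transcripts. The submitters' processing notes name STAR, bedtools, DESeq and mm9, with versions not given in the sources used here. Entries of a gene with the same values were merged (28047 transcripts), and 16234 reached the minimum mean of 0.1 RPKM. These were tested on log2(RPKM + 0.1) with limma 3.58.1 (R 4.3.3), with moderated variances that follow a trend on the mean. The p-values were adjusted by Benjamini-Hochberg, with a threshold of 0.05. In simulated data with 200 changed transcripts, this fit recovered 55% of 2-fold and 100% of 4-fold changes, and 7.19% of its calls were unchanged transcripts. Smaller changes can therefore be missed. Python 3.11.15, pandas 2.3.3, numpy 2.4.6, scipy 1.17.1 and matplotlib 3.10.9 were used for other steps. Depth was recovered from the steps of microRNA values, of which 98.8% to 99.2% were whole reads within 0.05 read. For low genes of short span, 76.8% to 79.2% of values were whole reads over the genomic span and 6.19% to 8.96% over exons. Reads reconstructed from RPKM, GENCODE span and depth (88.4% of transcripts) are estimates.

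The genes, lists and motifs were chosen with earlier results of these data known. All 10 core genes were named, with *Ins1*, *Ins2* and the 2 largest rises and 2 largest falls past the threshold in each list. The values of some list genes are not reported here. Positions come from GENCODE on mm9 and promoters from RefSeq on GRCm38.p6. Alternatives were 0.5 or 1 RPKM added, other minimums, quantile normalization, median centring, no variance trend, robust moderation, the replicate block, voom on reconstructed reads with a mean of at least 20, 1 entry per gene, other entries of a gene, ratios of means and leaving out each library. Leaving the core genes out of the FOXO and CREB lists was chosen after seeing the data.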

Additional observations from a re-analysis of the deposited data

How the results depend on the processing

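The number of transcripts past the threshold, 4845 of 16234, was 2593 of 7867 with a minimum of 1 RPKM, 2628 with that minimum and 0.5 RPKM added, 8227 of 14453 in voom on reconstructed reads with the replicate block, and 385 to 1498 with 1 library left out, where the lone library of a group is taken to vary like the pair in the other group. Of the 10 core genes, 6 passed, but 3 of the 5 tested with a minimum of 1 RPKM (with 0.1 or 0.5 RPKM added) and 1 to 3 with 1 library left out, the lowest (*Irs2* alone) without replicate 2 at 16.8 mM. Of the other pathway genes 37 of 91 passed, against 59 of 102 in voom, 75 of 102 in voom with the block and 9 to 17 of 91 with 1 library left out. The shares of all transcripts that passed were 29.8%, 42%, 56.9% and 2.37% to 9.23% in these fits. Fewer libraries leave fewer degrees of freedom, and a higher minimum leaves fewer transcripts.

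The log2 fold change of *Foxo3* reversed to 0.0175 with quantile normalization, 0.0675 with median centring and 0.0076 without replicate 2 at 16.8 mM, and was as low as -0.0936 without replicate 1 at 16.8 mM. The cause was not tested. With 1 RPKM added, the log2 fold changes shrank to -0.25 for *Insr*, 0.41 for *Igf1r*, 0.10 for *Irs1* and 0.81 for *Irs2*, as adding more RPKM to low values must. With nothing added, the change in the log2 ratio was -1.81 for *Insr*/*Igf1r*, 0.84 for *Irs2*/*Irs1* and 0.25 for *Foxo1*/*Foxo3*.

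Libraries with the same replicate number are not said to share a batch, and deviated together only weakly (correlation 0.13 across transcripts). In the fit with a replicate block, 6950 transcripts, 7 of the 10 core genes and 51 of the other pathway genes passed, and *Akt1* was the core gene gained (adjusted p = 0.038). Voom with the block called 9 core genes, all but *Foxo3*.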
